A study of Homo sapiens with 6 samples.

Results

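The regions described here lie inside protein-coding genes and were recovered with a V5 antibody in at least 2 of 3 chromatin immunoprecipitation libraries. They number 525 of 1390 reproducible regions (37.8%) and of 3783 merged regions in all. The cells were a clone of HepG2, an established human liver cancer line with hepatocyte features, that carries a V5-tagged form of TAF2 (HepG2-TAF2-V5). The labels list 3 libraries of the V5 antibody and 3 controls of the same clone. The control titles say input DNA and their library names say IgG, and no control list was analysed here. All libraries came from a single clone with no stated treatment beyond the antibody, and the labels do not say whether they came from separate cultures.

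TAF2 is one of the TBP-associated factors that join TBP to form TFIID. TFIID recognises core promoters, and TAF2 together with TAF1 contacts the initiator, the short sequence around the first transcribed base. A site inside a gene can be a further start of that gene, the start of a noncoding transcript, an enhancer in an intron or transcribed sequence behind the promoter. The deposited lists do not tell these apart.

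A region was formed by merging peaks that shared at least 1 bp, and it was kept if its strongest peak had its summit within an annotated protein-coding gene. It also had to avoid all sequence within 1000 bp of an annotated end of any such gene. Of 618 regions that met these conditions, 93 lay in fixed bins of 100 kb that held 5 or more peaks in each list and were dropped. There were 26 such bins on chromosomes 1 to 22 and X. The members were thus chosen by the presence of called peaks in at least 2 libraries and by their positions, so presence, library support and fold are given as a description with no test. Without replicate 1, 2 or 3 the number was 357, 287 or 332, since both remaining libraries then had to hold a peak. Exon and intron positions were not used here. Just inside the window limit lay regions of RNF43 (1004 bp from a gene end), NAP1L4 (1010 bp) and PLPPR1 (1029 bp). Just outside it lay regions of RPL4 (994 bp), CDKN1B (924 bp) and HNMT (912 bp). The folds of these 6 regions lay between 3.62 and 7.06, and each had peaks of 2 libraries.

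Some of these regions met windows around annotated transcription starts that lie within the span of the gene. RefSeq start windows, which run from 250 bp before to 50 bp after a start, were met by 27 of the 525 regions (5.14%, exact binomial 95% interval 3.42 to 7.39%). In 22 of the 27 the start belonged to the host gene itself, and in 5 it belonged to a long noncoding RNA gene alone. Among gene-end regions, for which the rule set the position, 104 of 214 met such a window. Among intergenic regions 20 of 454 did (4.41%, 2.71 to 6.72%), a share near that of the members. The rule keeps intergenic regions outside protein-coding genes and away from their ends, so they could not meet a protein-coding start. The sequences below are shown because the region has its summit in the window of a start of its host gene. In 5 of the 7 it includes the start, and in IDI1 and SERPINA1 it stops just short of it, covering 200 and 175 of the 210 bases. They comprise every such start of a host gene with peaks in 3 libraries, and 3 of those with 2 libraries that were picked for their genes. Each runs 5′ to 3′ on the strand of the gene from 200 bases before the start to 10 bases into the transcript, from RefSeq on GRCh38.p14. Capitals mark matches, on either strand, to CCAAT (the CCAAT box) or GGGCGG (the GC box), or a CA pair whose A is the first transcribed base.
DYNLL1, chr12:120495913-120496122, strand +: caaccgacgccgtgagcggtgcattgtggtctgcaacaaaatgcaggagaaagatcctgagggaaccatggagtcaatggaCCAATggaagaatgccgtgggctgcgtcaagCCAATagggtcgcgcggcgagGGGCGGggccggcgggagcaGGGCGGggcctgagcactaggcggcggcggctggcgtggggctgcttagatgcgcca
IDI1, chr10:1048877-1049086, strand -: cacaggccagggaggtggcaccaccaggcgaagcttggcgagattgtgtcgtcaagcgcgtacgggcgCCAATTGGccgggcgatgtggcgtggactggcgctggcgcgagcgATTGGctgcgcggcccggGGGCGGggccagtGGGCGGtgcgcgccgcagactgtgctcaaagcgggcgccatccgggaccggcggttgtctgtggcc
HNRNPF, chr10:43397268-43397477, strand -: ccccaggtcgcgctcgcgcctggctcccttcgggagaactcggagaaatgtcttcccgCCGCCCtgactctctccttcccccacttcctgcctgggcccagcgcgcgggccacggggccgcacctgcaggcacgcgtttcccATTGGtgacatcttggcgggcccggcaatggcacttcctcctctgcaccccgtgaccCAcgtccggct
TOB1, chr17:50866345-50866554, strand -: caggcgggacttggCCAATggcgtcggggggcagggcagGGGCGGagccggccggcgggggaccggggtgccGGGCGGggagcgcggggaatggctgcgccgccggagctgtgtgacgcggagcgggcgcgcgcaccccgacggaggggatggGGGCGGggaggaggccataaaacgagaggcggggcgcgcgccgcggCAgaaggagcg
SMAD7, chr18:48942798-48943007, strand -: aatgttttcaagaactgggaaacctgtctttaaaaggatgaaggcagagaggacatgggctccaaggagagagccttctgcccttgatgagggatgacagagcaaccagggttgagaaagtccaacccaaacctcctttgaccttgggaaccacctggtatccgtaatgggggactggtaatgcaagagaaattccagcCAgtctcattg
LPIN1, chr2:11746432-11746641, strand +: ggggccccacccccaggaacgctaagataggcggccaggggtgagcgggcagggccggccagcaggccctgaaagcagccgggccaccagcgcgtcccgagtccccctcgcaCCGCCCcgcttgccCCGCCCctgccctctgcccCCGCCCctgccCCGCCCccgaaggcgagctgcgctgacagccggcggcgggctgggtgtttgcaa
SERPINA1, chr14:94388593-94388802, strand -: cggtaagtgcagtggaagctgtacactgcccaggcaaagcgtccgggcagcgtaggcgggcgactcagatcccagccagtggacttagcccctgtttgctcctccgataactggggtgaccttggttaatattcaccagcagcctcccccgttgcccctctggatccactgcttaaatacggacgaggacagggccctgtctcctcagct

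DYNLL1 encodes a dynein light chain, and its region (223 bp) had folds of 6.59, 8.47 and 7.19 in replicates 1, 2 and 3. All 3 values lay above the median of their list, and the summit was 88 bp before the start. The summit lies 26183 bp from the annotated 5′ end of the gene, near its 3′ end, and the window of the noncoding gene NRAV on the other strand was met by the same region. IDI1 encodes isopentenyl-diphosphate isomerase of the cholesterol pathway. Its region (334 bp) had folds of 8.12, 6.16 and 6.94, with the summit 163 bp before the printed start and 70 bp beyond another annotated start of the gene. At HNRNPF, a splicing regulator gene, the folds were 5.05, 5.75 and 5.21, and the summit lay 75 bp before the start. TOB1, which encodes an antiproliferative protein, had folds of 4.19, 5.95 and 4.49 and its region also met the start window of the divergent TOB1-AS1. A further 3-library region over an own start was that of HIF1A, the hypoxia factor gene, which ran for 1553 bp and had its summit 352 bp beyond the start, outside the window.

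At SMAD7, an inhibitor of TGF-beta signalling, the second of 3 regions covered an inner start, with folds of 7.45 in replicate 1 and 5.32 in replicate 3 and no peak in replicate 2. The phosphatidate phosphatase gene LPIN1 had folds of 4.52 and 4.55 in replicates 2 and 3. SERPINA1, which encodes alpha-1 antitrypsin, had 3.93 and 4.27 in the same libraries, low in both lists. Regions that met the window of an inner start without reaching the start were present, in 2 libraries each, at the lipid synthesis gene ACSS2 (summit 381 bp before the start) and at ACACA, which encodes acetyl-CoA carboxylase (276 bp before it).

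In the stretch from 200 bases before to 10 bases after the start, GGGCGG was present in 16 of the 23 own-gene start windows met (69.6%) and in 40.6% of all 35116 RefSeq windows. CCAAT was present in 9 of 23 (39.1%) against 28.7%, and a CA pair at the start in 9 of 23 (39.1%) against 29.6%. TATAAA was found in 1 of 23 against 8.81% of all windows, CACGTG (the E-box) in 1 of 23 against 5.76%, and TGACGTCA (the cAMP response element) in none against 1.73%. The letters TCACNCCAC of the sterol regulatory element were found in none of the 23 and in 0.755% of all windows. Both strands were searched apart from the CA pair, and in IDI1 a pair of CCAAT matches on opposite strands overlap. The 23 windows belong to protein-coding genes, whereas the 35116 also include starts of noncoding genes, so the shares compare unlike mixes of genes. The single region of IDI1 met more than 1 of the 23. These shares describe letters in fixed windows, and 23 windows allow wide counting error.

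By strength, the first of the members with peaks in 3 libraries was inside C14orf93, a gene of little-known function (chromosome 14, 23006864 to 23007494). Its folds over background, the authors' own values, were 22.4, 27.3 and 29.8 in replicates 1, 2 and 3. It stood apart from the rest of the strongest 20, whose folds lay between 6.58 and 19.2. FDFT1, the squalene synthase gene at the branch point to cholesterol, came second with folds of 14.8, 13.3 and 12.2. DLGAP1, which encodes a scaffold protein of the postsynaptic density, followed with 10.3, 14.7 and 10.9 over a site within its antisense gene DLGAP1-AS2 (chromosome 18, 3604775 to 3605210). Their mean rank percentiles over the 3 lists were 99.9, 99.5 and 99.0, where 100 is the strongest peak of a list.

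Among the other members of the strongest 20 were regulators of transcription and chromatin. The chromatin regulator gene ANKRD11, which here overlaps LOC128462377, had folds of 9.53, 13.1 and 10.8 (chromosome 16, 89345649 to 89346008). The zinc finger homeobox gene ZFHX3 had 8.62, 14 and 9.96, and the forkhead gene FOXN3 had 8.53, 10.4 and 10.8. MIDEAS, a gene for a component of a histone deacetylase complex, had 9.19, 9.84 and 9.54. NPM1, which encodes the nucleolar protein nucleophosmin, had 10.5, 10.8 and 8.94 in a region of 3383 bp (chromosome 5, 171388434 to 171391816). GOLM1, a Golgi membrane protein gene, had 11.8, 19.2 and 7.74.

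Genes of metabolism and transport were also present in this group. ABCC3, a transporter of organic anions and bile salts, had folds of 8.44, 7.86 and 11.5. The glycine decarboxylase gene GLDC had 7.06, 13.1 and 7.72. A region within the span shared by 8 glucuronosyltransferase genes, UGT1A3 to UGT1A10, had 6.58, 8.95 and 7.68. RPTOR, which encodes the raptor subunit of mTORC1, had 7.29, 8.94 and 9.19. VILL, FAM222A, SLC1A7, ARSG, SNTB1, CPLX2 and HS1BP3 completed the 20. The fold was highest in replicate 2 in 12 of the 20, in replicate 3 in 7 and in replicate 1 in 1, and folds are not scaled between lists. The summit of 7 of the 20 lay inside an annotated gene that is not protein-coding, among them DLGAP1-AS2, FOXN3-AS3, FAM222A-AS1 and SNTB1-AS2, and the entry for the UGT1A cluster itself. Over all members this held for 52 of 525 (9.9%, interval 7.49 to 12.8%).

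**Figure D1:**
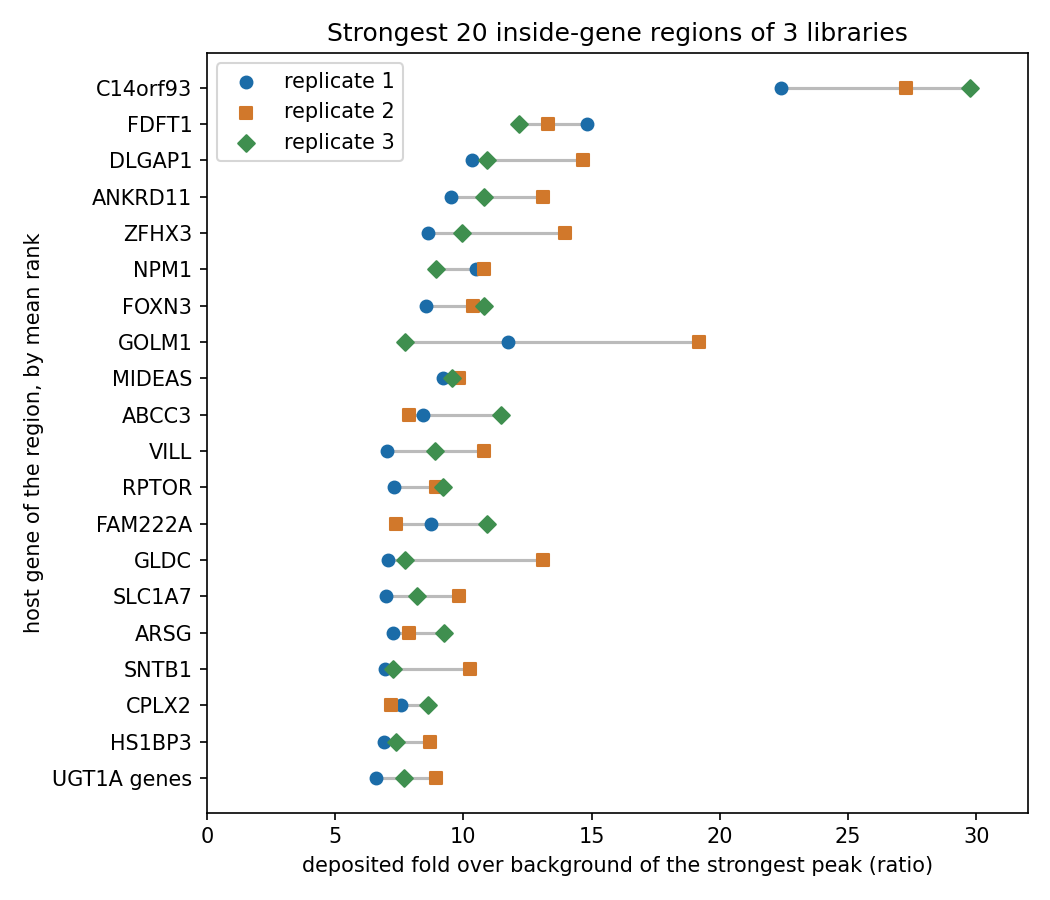
Deposited fold over background (x axis, ratio) of the strongest peak of each library in the 20 highest-ranked inside-gene regions of 3 libraries (y axis, by host gene). Points are libraries and grey lines join their range; C14orf93 lies between 22.4 and 29.8, and the other 19 between 6.58 and 19.2.

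Of the 525 regions, 219 had peaks of 3 libraries (41.7%, interval 37.5 to 46.1%) and 306 of 2. Replicates 1, 2 and 3 had peaks in 391, 460 and 418 of them. Gene-end regions had 3 libraries in 35.5% (29.1 to 42.3%) and intergenic regions in 47.1% (42.5 to 51.8%). The median fold of the members was 5.25, 5.77 and 5.32 in replicates 1, 2 and 3, against 5.01, 5.25 and 5.03 over the whole lists, and their lowest fold was 1.97, at NSD1. A member takes the strongest of its peaks in each library, whereas the lists count every peak, also those without a partner in another library. In rank, the median member stood at the 58.6, 64.3 and 58.7 percentile, a mean of 60.5 ± 3.25 (SD over 3 libraries). Gene-end regions stood at 53.9 ± 4.32 and intergenic regions at 62.8 ± 6.18. These classes share libraries and callers, and no test was made between them.

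The rule merged only overlapping peaks, which keeps the summits of a narrow member near each other. Overlapping peaks can join in a chain, so the summits of a wide member can lie farther apart. The folds printed for a wide member can thus belong to different sites within it. The distance between the outermost summits had a median of 86 bp in the 219 regions of 3 libraries and 50.5 bp in the 306 of 2. It was at most 100 bp in 127 and 219 of them, and its maximum was 2057 and 500 bp. Across shared members, the rank percentiles of replicates 1 and 2 correlated with Pearson's r = 0.48 (Spearman's rho 0.50, n = 326 regions), those of 1 and 3 with 0.44 (0.46, n = 284) and those of 2 and 3 with 0.43 (0.45, n = 353). These are correlations across regions of the same libraries and carry no p-value. The strongest members without a peak in the remaining library included those in ATXN10 (9.11 and 11.2 in replicates 1 and 2), FAM110B (10.6 and 9.71 in replicates 1 and 2), AGT (10.1 and 7.48 in replicates 2 and 3) and LRMDA (8.81 and 7.74 in replicates 2 and 3). AGT encodes angiotensinogen, a liver plasma protein, and ATXN10 ataxin-10.

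The members were not spread evenly along their genes. Strand was known and the host gene single for 405 of 525 regions. Of these, 251 had their summit nearer to the 5′ than to the 3′ end of the gene (62.0%, interval 57.1 to 66.7%). Within 5 kb of the 5′ end lay 104 regions, and within 5 kb of the 3′ end 27. Without replicate 1 these counts were 66 and 13, and without replicate 3 63 and 15. The rule treated both ends alike and used no strand. Between 1000 and 2000 bp the counts were 33 from the 5′ end and 1 from the 3′ end, between 2000 and 3000 bp 43 and 13, and between 3000 and 5000 bp 28 and 13. From 5000 to 10000 bp they were near equal, 31 and 32. With a window of 5000 bp around gene ends in place of 1000 bp, 52.3% of the remaining regions lay nearer to the 5′ end.

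**Figure D2:**
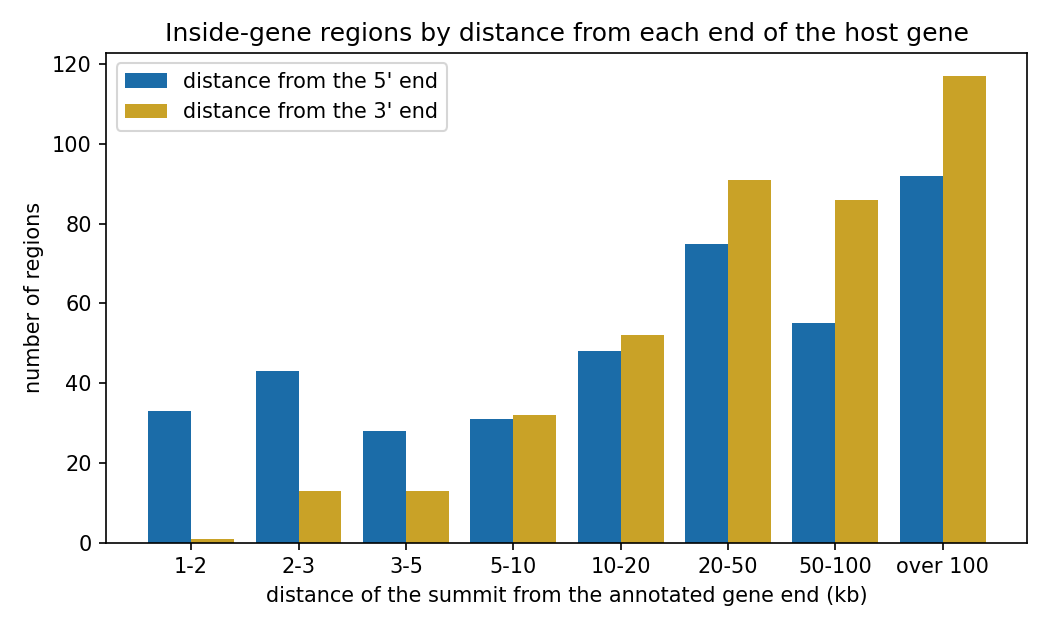
Number of inside-gene regions (y axis) by distance of the summit from the annotated 5′ end (blue) and from the 3′ end (yellow) of the host gene, in kb (x axis, unequal bins). Each of the 405 regions of known strand is counted once in each colour; below 5 kb there are 104 from the 5′ end and 27 from the 3′ end, a region of a short gene counting in both.

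The same order of the ends was seen in peaks that the rule left out. Inside-gene regions of a single library, filtered by position in the same way, lay within 5 kb of the 5′ end in 76 of 200 in replicate 1 (38.0%), 114 of 466 in replicate 2 (24.5%) and 73 of 210 in replicate 3 (34.8%). Within 5 kb of the 3′ end lay 10, 17 and 14 of them. The share nearer to the 5′ end was 65.5, 62.2 and 67.6% in replicates 1, 2 and 3, so each library alone had more such regions in the 5′ part. By gene length, 48 of 55 members in genes under 20 kb lay nearer to the 5′ end (87.3%, 75.5 to 94.7%). In genes of 200 kb or more, 47 of 104 did (45.2%, 35.4 to 55.3%). Outside genes, 26 of the 454 intergenic regions lay within 5 kb before a 5′ end and 14 within 5 kb after a 3′ end. Among the strongest 50 members of 3 libraries, 25 of 50 lay nearer to the 5′ end and 9 lay within 5 kb of it. The strongest members were thus not mainly those close to the annotated 5′ end. Distances were measured to the ends of the gene span only, so regions at inner starts stay in these counts.

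The widest members lay almost entirely behind the 5′ end. Regions of at least 1000 bp were not particular to the members. They made up 15 of 214 gene-end regions (7.01%, up to 9849 bp), 23 of 525 members (4.38%) and 1 of 454 intergenic regions. Of 23 members of at least 1000 bp, 21 had peaks of 3 libraries, and 21 had a single host gene of known strand. Of the latter, 19 had their summit within 5 kb of the 5′ end, whereas 85 of 384 narrower regions did (22.1%). The nearest of the 19 lay 1451 bp from it, but the rule left out all regions within 1000 bp of a gene end. The share near the 5′ end rose with width throughout. Within 5 kb of it lay 12.4% of regions up to 250 bp, 17.4% of those above 250 and up to 400 bp, 38.4% of those above 400 and under 1000 bp and 90.5% of those of 1000 bp or more. The share with 3 libraries rose over the same classes from 16.2 through 43.1 and 58.0 to 90.5%. A merged region tends to be wider the more libraries it holds, so these shares are not independent of each other. Wide regions held a median of 5 peaks over the libraries.

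The region of ROCK2, which encodes a kinase that regulates the actin cytoskeleton, was the widest member at 4595 bp with 11 peaks (chromosome 2, 11338648 to 11343242). Its folds were 6.86, 8.16 and 7.26, and its strongest summit lay 4657 bp behind the 5′ end of a gene of 165679 bp. NPM1 followed with 3383 bp, 2194 bp from its 5′ end. FNDC3B, a membrane protein gene of 362092 bp, had a region of 2971 bp with folds of 6.31, 8.22 and 6.80 and a summit 4279 bp from the 5′ end. RNF43, a ubiquitin ligase that removes Wnt receptors, had a region of 2541 bp with folds of 7.34, 6.59 and 6.58. The other wide regions near a 5′ end included those of RPS6KA3 and SPRY4 (growth factor signalling), NRIP1 (a nuclear receptor corepressor), SON and TAF1D. TAF1D belongs to the RNA polymerase I factor SL1 and not to TFIID. Of the 2 exceptions, TXNRD1, the thioredoxin reductase gene, had a region of 1930 bp lying 74502 bp from the 5′ end but 3249 bp beyond an inner annotated start. SCN1A, a neuronal sodium channel gene, had one of 1120 bp in replicates 2 and 3, 14570 bp from the 5′ end and within SCN1A-AS1.

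**Figure D3:**
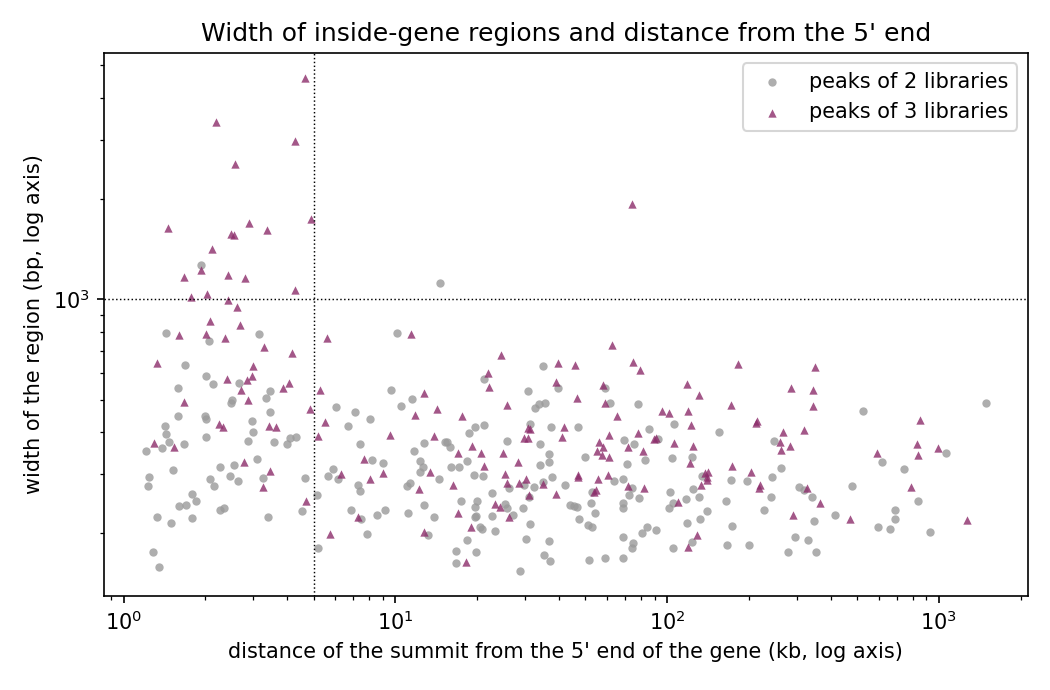
Width of each of 405 inside-gene regions (y axis, bp, log axis) against the distance of its summit from the 5′ end of the host gene (x axis, kb, log axis), by library support. Dotted lines mark 1000 bp and 5 kb; 19 of the 21 widest regions lie in the upper left.

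Measured instead to the nearest own start in the start table, 32 of 405 summits lay within 1000 bp of a start of their own gene. A further 112 lay more than 1000 and up to 5000 bp behind the nearest own start and 9 the same distance before it. The remaining 252 were farther than 5 kb from any own start in the table. That table does not list the 5′ end of every gene span. The summit in SSUH2, 1475 bp from the 5′ end of the span, thus counts among the 252. A summit before its nearest start and inside the gene is possible only where a gene has an inner start, which limits the count of 9. The start table does not hold every transcript, so these distances are upper limits.

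Genes with such a region were compared with genes in general. The 525 regions fell in 419 of 19974 protein-coding genes (2.10%). Without replicate 2 they fell in 240 genes, fewer by more than 1.5 times. These genes were long, with a median span of 87489 bp against 24170.5 bp over all genes. The share holding a region was 0.668% of genes under 20 kb, 1.67% of those of 20 to 50 kb, 2.75% of those of 50 to 100 kb, 5.63% of those of 100 to 200 kb and 6.45% of those of 200 kb or more. A reproducible region at the 5′ end itself was present in 28 of 331 genes of known strand with an inside region (8.46%, interval 5.69 to 12%), against 1.13% of all 15812 genes of known strand. At the 3′ end the corresponding counts were 3 of 331 (0.906%) and 33 of 15812 (0.209%). Genes with both a 5′ end region and an inside region included the splicing genes SRSF3, TRA2B, HNRNPC and HNRNPLL, the chaperone genes HSPA8 and HSP90AB1, and ROCK2, WDR43, XBP1 and C14orf93. In most genes with an inside region, no reproducible region lay at either end.

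One region was found in 318 of the 419 genes, 2 in 78 and 3 or more in 23. The 78 include the overlapping UGT1A genes, which share the same 2 regions. Neighbouring regions of a gene, each pair counted once, were separated by a median of 5382 bp, and 40 of 124 neighbouring pairs by at most 1000 bp. GSE1, which encodes a subunit of a histone demethylase complex, had the most, 6 regions over a gene of 506689 bp. Its regions fell into a pair 122242 and 138274 bp from the 5′ end and a group of 4 between 345583 and 366077 bp, and 4 of the 6 had peaks of 3 libraries. IGF2BP1, an oncofetal RNA-binding protein gene, had 5, all with peaks of 3 libraries and all between positions 48999168 and 49003618 of chromosome 17. Their folds ran from 3.96 to 6.23, lower than those of the strongest members. DLGAP1 had 4 regions between 789331 and 850402 bp from its 5′ end. BCL2L1, a survival gene of the BCL2 family, had 4, between 3986 and 19199 bp, of which the strongest had folds of 5.14, 10.1 and 6.14. TXNRD1 had 4, of which 3 lay between positions 104287763 and 104291004 of chromosome 12.

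Genes with 3 regions showed both arrangements. Regions lay in a row behind the 5′ end in PTGES3, a cochaperone gene (2140, 3155 and 4069 bp), in CHD2, a chromatin remodeller gene (1594, 2664 and 4105 bp), and in NEDD4L, a ubiquitin ligase gene (2611, 3381 and 6687 bp). HNRNPC (2710, 4873 and 7281 bp) and PHYHIPL (1996, 4876 and 6066 bp) had the same pattern. In NEDD4L and PHYHIPL, however, the regions flanked an inner annotated start. Measured to the nearest own start, with negative values before it, they lay at -389, 381 and 3687 bp in NEDD4L. In PHYHIPL they lay at -1571, 1309 and 2499 bp. Others were spread over the gene. SMAD7 had regions at 2243, 8083 and 20608 bp, SLC2A2, the hepatocyte glucose transporter gene, at 12743, 24423 and 25301 bp, and CMIP at 7423, 12275 and 104593 bp. In KCNQ1, a potassium channel gene, a region of 1670 bp lay within KCNQ1OT1, the antisense noncoding RNA of this imprinted locus, with folds of 7.69, 6.0 and 5.62. RNF43 and ZNRF3, a pair of related Wnt receptor ligases, each had 3 regions. Of those in RNF43, the pair nearest to the 5′ end lay 1434 and 2569 bp from it.

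Gene lists were then set beside the background of 2.10% and beside the share of all genes in the same length classes. Of 722 listed genes, 66 had an inside region. The lists were chosen with earlier results of these data known, so a high count in them is no independent support. In the list of Wnt, Hippo and liver cancer genes 10 of 54 had a region (18.5%, interval 9.25 to 31.4%), against 3.08% of genes of the same lengths. In RNF43 the strongest region had the folds given above, in YAP1, the Hippo coactivator gene, 5.17, 6.61 and 5.45, in ZNRF3 6.60, 5.04 and 5.40, and in LGR5, a receptor for R-spondins, 4.89 and 5.85 in replicates 1 and 3. AXIN2, CTNNB1, TBX3, TEAD4, IGF2BP1 and AFP were the other members. RNF43, ZNRF3 and AXIN2 act as negative regulators of Wnt signalling, and the remaining members differ in function.

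Splicing factors and RNA-binding proteins had regions in 9 of 55 (16.4%, 7.77 to 28.8%), against 1.89% at the same lengths. SON, a nuclear speckle protein gene, had folds of 5.94, 6.70 and 5.56 and a summit 1668 bp from its 5′ end. TRA2B had 4.97 and 6.60 in replicates 1 and 3. SRSF3 had 6.21, 5.84 and 4.53, 2013 bp from the 5′ end, and HNRNPF the values given with its sequence. HNRNPLL, HNRNPU, RBM39, HNRNPC and HNRNPH1 were the others. In SON, SRSF3, HNRNPLL, HNRNPU and HNRNPC the strongest region lay within 5 kb of the 5′ end.

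Sterol and lipid synthesis genes had regions in 7 of 50 (14%, 5.82 to 26.7%), against 2.08% at the same lengths. Besides FDFT1 and IDI1 these included ACSL4, an acyl-CoA synthetase gene (7.39, 6.39 and 5.91 in a region of 1416 bp), ACSS2, ACACA and LPIN1. FDFT1, IDI1 and ACSL4 had peaks in 3 libraries and the other 4 in 2, and without replicate 3 the count was 3. Thus FDFT1 stood near the top of each list, while ACACA and LPIN1 ranked in the lower part, at mean percentiles of 37.0 and 30.6.

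**Figure D4:**
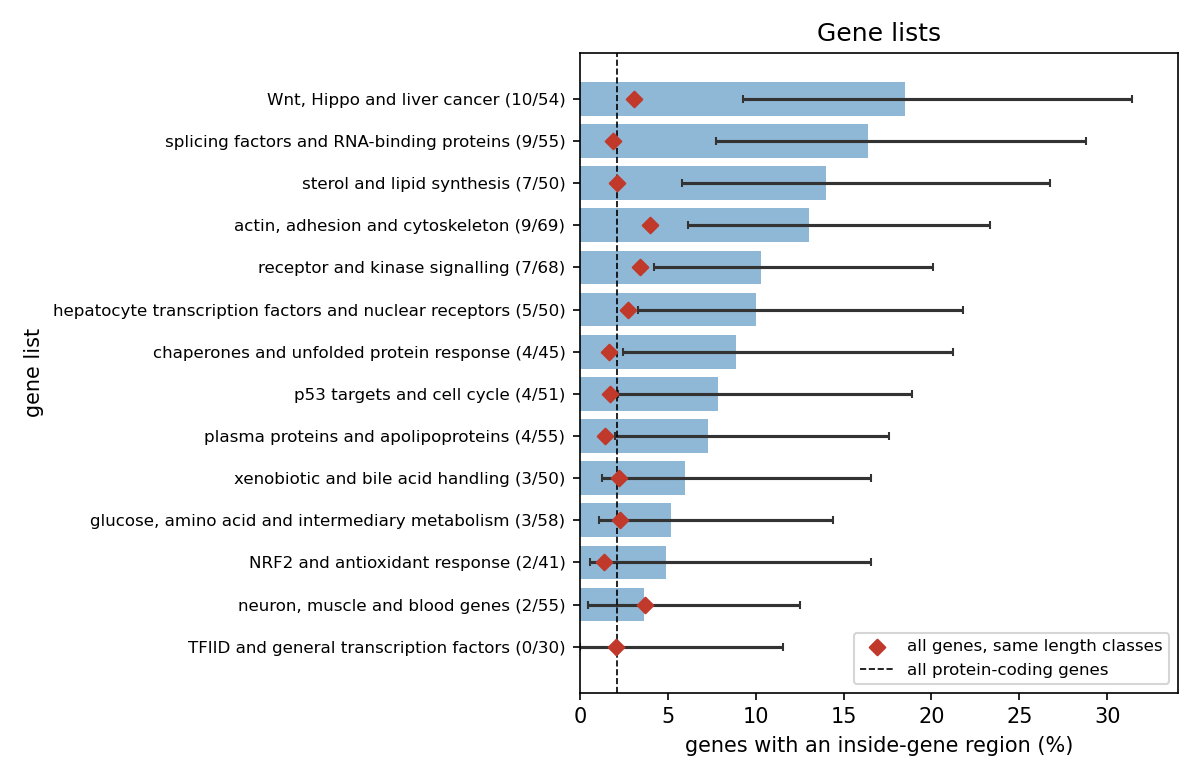
Share of the genes of each list with an inside-gene region (x axis, %; bars, with counts beside the names) and exact binomial 95% intervals for counting error (lines). The dashed line is the 2.10% of all protein-coding genes, and the diamonds are the share of all genes in the same length classes; the Wnt, splicing and sterol lists have the 3 highest shares.

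Among genes of the actin cytoskeleton and adhesion, which are long, 9 of 69 had a region (13.0%, against 4.0% at the same lengths). The myosin gene MYO1E (6.29, 10.3 and 6.0), the LIM protein gene LPP (5.70, 7.43 and 7.09) and the actinin gene ACTN4 (5.65 and 7.62 in replicates 1 and 3) ranked highest, and CTNND1 followed at 5.68, 4.56 and 4.48. In receptor and kinase signalling 7 of 68 had one (10.3%, against 3.41%). SMAD7 led with 9.19, 7.30 and 5.70, followed by SMAD3, a TGF-beta effector gene, with 6.29, 5.63 and 6.60. KLB, the coreceptor for FGF19 and FGF21 in hepatocytes, had 5.92, 6.20 and 5.41, and SPRY4 was also among them. Without replicate 1 or replicate 3 the actin list had 5 genes with a region, and at −log10 q of at least 3 it had 4. The region of SMAD3 also met the start window of SMAD3-AS1.

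Hepatocyte regulators had regions in 5 of 50 (interval 3.33 to 21.8%), against 2.72% of genes of the same lengths, among them XBP1 (4.64, 8.42 and 6.57), HNF4A, the master regulator of hepatocyte genes (5.21, 5.52 and 5.29), TBX3 and NR1D1. Of plasma protein and apolipoprotein genes 4 of 55 had one (7.27%, against 1.42%), namely AGT, the transferrin gene TF (5.75 and 5.25 in replicates 1 and 2), AFP (5.11, 4.34 and 4.0) and SERPINA1. Without replicates 1, 2 and 3 in turn, the regulators numbered 3, 2 and 4 and the plasma protein genes 3, 1 and 2. Of 20 marker genes of hepatocytes, SERPINA1, HNF4A, TF and AFP had an inside region. A marker without one is not thereby absent from these cells, since peaks do not measure expression.

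Chaperone and unfolded protein genes had regions in 4 of 45 (8.89%, against 1.64%), XBP1, CREB3L2, HSPA8 and HSP90AB1, and p53 target and cell cycle genes in 4 of 51 (7.84%, against 1.73%), CDKN1A, CDK6, CDKN1B and BBC3. CDKN1A, the p21 gene, had 6.34, 6.61 and 7.20, 7309 bp from its 5′ end. Genes of xenobiotic and bile acid handling had regions in 3 of 50 (6.0%, against 2.24%), ABCC3, ABCG2 and SLCO2B1. Those of intermediary metabolism had regions in 3 of 58 (5.17%, against 2.29%), among them SLC2A2 and TAT, and antioxidant genes in 2 of 41 (4.88%, against 1.38%), TXNRD1 and UGDH. Genes of neurons, muscle and blood, listed as a contrast, had regions in 2 of 55 (3.64%, against 3.72% at the same lengths), SCN1A and RUNX1. Among 30 genes for TFIID subunits and other general transcription factors there was none (interval 0 to 11.6%), against 2.07% of genes of the same lengths, so the count is near the background. The counts in this paragraph rest on at most 4 genes a list. Without 1 replicate they fell by more than 1.5 times in several lists: the chaperone list had 2 without replicate 1, the xenobiotic and intermediary metabolism lists each had 1 without replicate 2, the antioxidant list had 1 without replicate 1 or 3, and the contrast list had 1 without replicate 2 or 3.

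By chromosome, the members numbered 0.431 per Mb of gene interior over all chromosomes. Chromosome 20 had 37 regions and the highest density, 1.40 per Mb (exact Poisson 95% interval 0.987 to 1.93, counting error only), followed by chromosome 17 with 45 (1.08, 0.790 to 1.45). Chromosomes 22 (0.875), 16 (0.754) and 12 (0.689) also had intervals wholly above the overall density. The lowest were chromosome X with 5 regions (0.102, 0.0331 to 0.238) and chromosome 13 with 4 (0.123, 0.0334 to 0.314). On chromosome 20, replicates 1, 2 and 3 had peaks in 26, 35 and 27 of the 37 regions, and on chromosome 17 in 33, 42 and 40 of the 45. Copy number of these chromosomes in the clone was not measured here, and its part in the densities was not tested. Members of chromosome 20 included the regions of BCL2L1, HNF4A and TASP1, and of chromosome 17 those of IGF2BP1, RNF43, ABCC3, RPTOR, PRKAR1A and SEPTIN9.

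**Figure D5:**
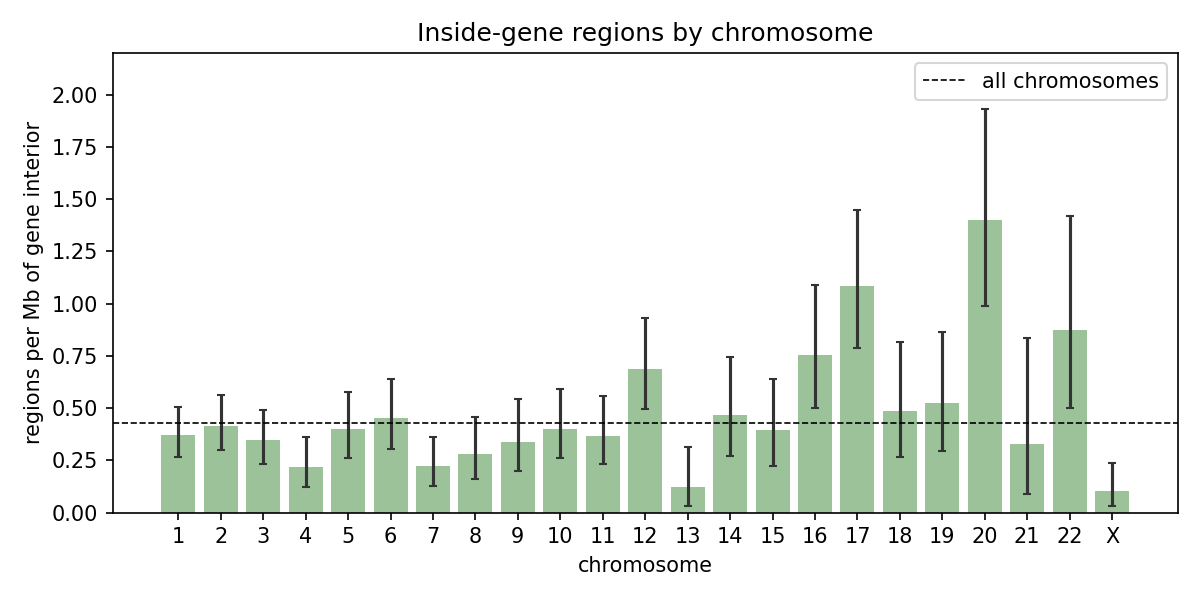
Inside-gene regions per Mb of gene interior (y axis) for each chromosome (x axis), with exact Poisson 95% intervals for counting error; the dashed line is the density over all chromosomes, 0.431 per Mb. Chromosomes 20 and 17 are highest, at 1.40 and 1.08, and X and 13 lowest.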

How the data were processed

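Chromatin immunoprecipitation and sequencing of 6 libraries of the clone gave 3 deposited V5 peak lists (1599, 2557 and 1887 peaks in replicates 1, 2 and 3). Per the labels, DNA was eluted from IgG or V5 precipitates and prepared with an NEBNext Ultra II kit, and the submitters' processing notes name GRCh38. The aligner, peak caller, control and threshold were not given in the sources used here. In the deposited narrowPeak layout, the authors' fold is a linear ratio over their background, and −log10 p and −log10 q are those of the authors' caller. The deposited score equals 10 times −log10 q with its decimals dropped and was left unused, and −log10 q served as a filter only. The lists hold no read counts, so depth is unknown, and intervals cover counting error only. Regions were ranked by fold within each list, as percentiles. Folds of a region are printed side by side and were not scaled between lists.

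Gene spans and types came from RefSeq (GRCh38.p14), with strand from a RefSeq start table that matched 15812 of 19974 protein-coding genes. The members and the gene lists were chosen with earlier results of these data known. Genes were named by a rule: hosts of the strongest 20 regions of 3 libraries, the strongest 5 of 2 libraries, the widest 3, genes with 3 or more regions (the 15 with most), up to 4 per list, and neighbours of the window limit. A few genes meeting it are not reported here. Further genes, the printed sequences and the width classes were picked after their values were seen. No test was made. On simulated peaks of equal width, 300 of 300 inside regions were found and classed. These were placed in genes over 20 kb and well away from gene ends. Inside regions of shorter genes and regions at the window limit were not simulated. Alternatives changed the peak threshold, overlap, window, libraries and dense bins. Python 3.11.15, numpy 2.4.6, pandas 2.3.3, scipy 1.17.1 and matplotlib 3.10.9 were used.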

Additional observations from a re-analysis of the deposited data

How the results depend on the processing

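The number of regions, 525 in 419 genes, depended mostly on strictness. It fell to 243 (217 genes) at −log10 q of at least 5, 271 (239) at fold of at least 5, 270 (236) among the strongest 1000 peaks of each list and 219 (193) with 3 libraries. Leaving out a replicate gave 287 to 357 regions in 240 to 299 genes, the fewest without replicate 2. The median over regions of their mean rank percentile was 55.9, a different measure from the mean of the library medians given above. This median over regions was 65.7 at −log10 q of at least 3 and 60.5 with a window of 5000 bp. It was 63.8 with 3 libraries and 58.4 to 60.9 with a replicate left out. The share nearer to the 5′ end, 62.0%, was 52.3% with a window of 5000 bp, 67.2% with dense bins kept and 60.9 to 63.6% with a replicate left out. Regions within 5 kb of the 5′ and 3′ ends numbered 48 and 10 with 3 libraries, and 63 to 77 and 13 to 20 with a replicate left out, so the 5′ count was the larger in each of these settings. Listed genes with a region, 66, numbered 42 with a window of 5000 bp and 37 with 3 libraries. With that window the Wnt list had 5 and the splicing list 4, and the sterol list had 3 with 3 libraries and 3 to 5 with a replicate left out. Of 164 recomputed values, 106 stayed within 1.5 times of the count, or within the interval or spread of the value. For the median percentile that spread was the SD of the library medians, 3.25. Library support could not be recomputed with a replicate left out, and a window of 5000 bp leaves no region within 5 kb of an end. No paired analysis was possible because the controls entered no comparison and no test was made. Unknown depth limits the weak regions most.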
